A study of Arabidopsis thaliana with 6 samples.

Results

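Of the genes for the large subunit of the plastid ribosome that lie in the plastid genome, 7 had an array probe set of their own: rpl14, rpl16, rpl20, rpl22, rpl32, rpl33 and rpl36. The rule took them by name and genome and used no measured value, though it was set with earlier results of these data known. They were 7 of 69 plastid genes with a probe set that names a single gene, on an array with 22746 tested probe sets. In 4-day-old seedlings of the Arabidopsis rcb-10 mutant, 5 of the 7 had a higher signal than in wild-type Col-0, rpl33 had a lower one, and rpl32 did not pass the test. The changes ran from a 6.19-fold rise of rpl20 to a 3.05-fold fall of rpl33.

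The study compared whole seedlings of Col-0 with seedlings of rcb-10, a T-DNA insertion allele of RCB in the Col-0 background whose seedlings are tall and albino in red light, and used no further allele on the arrays. Both genotypes were stratified for 4 days and grown for 4 days in continuous red (R) light of 10 μmol m-2 s-1. Each had 3 separately grown biological replicates. The methods list no sucrose among the contents of the medium. RNA from roots, hypocotyls and cotyledons together was hybridised to 6 single-colour Arabidopsis ATH1 arrays. No probe set with a single gene name stood for RCB, so the genotype labels were not checked on its transcript.

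The plastid ribosome is of the bacterial type, and its large subunit is built from rRNA and proteins of which some are made from plastid genes and the rest are encoded in the nucleus and imported. Plastid genes are read by a plastid-encoded RNA polymerase of bacterial type (PEP) and by a nuclear-encoded polymerase of phage type (NEP). PEP transcribes most photosynthesis genes, whereas NEP can transcribe housekeeping genes, among them ribosomal protein genes and those for the PEP core. Many plastid genes are transcribed together from a shared promoter and then processed, so that neighbours in the genome often share a transcript.

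The values are probe set signals in arbitrary units, scaled to the same trimmed mean of 500.04 on every array. Arrays of a genotype correlated at r = 0.9454 to 0.9526 over all probe sets, and arrays of different genotypes at 0.9190 to 0.9278, as a description across probe sets. Changes are differences of log2 signals, rcb-10 minus Col-0, from limma across all 22746 probe sets, and a gene is called where its Benjamini-Hochberg adjusted p is under 0.05. By this rule 16.9% of all probe sets (3853) were called, 6.76% as higher and 10.2% as lower. Centred on each array's median instead of the deposited scaling, the split of 1538 higher and 2315 lower turned to 2553 higher and 1493 lower, while every rpl gene kept its direction.

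Against that background 6 of the 7 rpl genes were called, 5 higher and 1 lower. All 6 also changed at least 2-fold, which 7.22% of all probe sets did with an adjusted p under 0.05. In these 6 the 3 rcb-10 signals did not overlap the 3 Col-0 signals, which held for 40.6% of all probe sets. The lowest signal of any rpl gene on any array was 496, 11.3 times the highest level of the bacterial trp control probe sets (43.8), to which no plant RNA should bind. In whole-seedling RNA, a change in the number of plastids or of plastid-bearing cells and a change in transcript per plastid cannot be told apart.

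**Figure D1:**
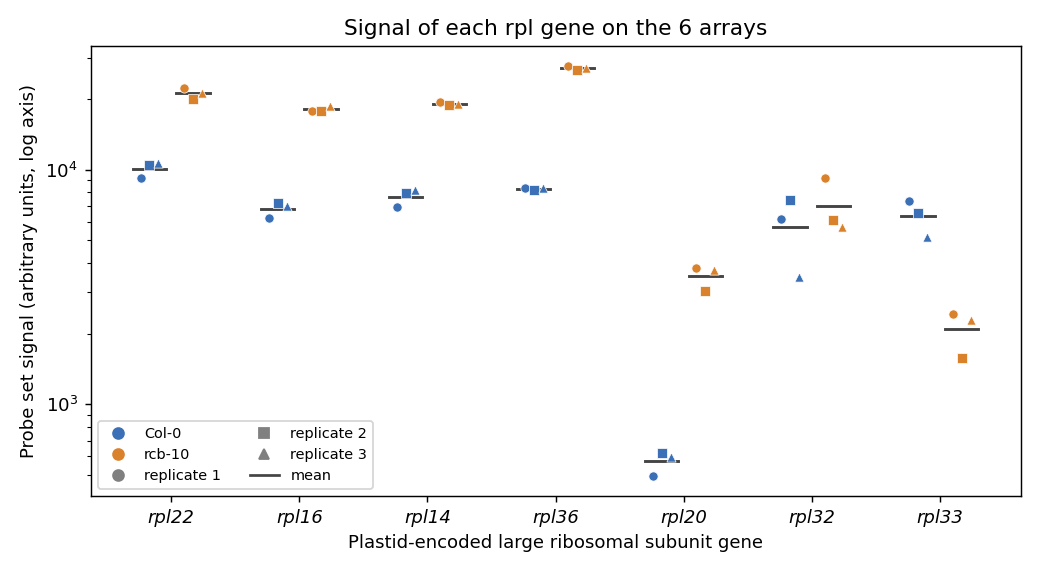
Signal of each rpl gene (arbitrary units, log axis) on the 3 Col-0 arrays (blue) and the 3 rcb-10 arrays (orange), with symbols for the replicate number and a line at each mean. The genotypes are apart for every gene but rpl32, and rpl33 is the gene whose rcb-10 signals lie below those of Col-0.

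Of the 7 genes, 4 lie in the ribosomal protein cluster of the plastid genome, whose measured genes in annotated order are rpoA, rpl36, rpl14, rpl16, rps3, rpl22, rps19, rpl2 and rpl23. It resembles the ribosomal protein operons of bacteria. rpl22 encodes L22, which in bacteria lines the tunnel through which the new peptide leaves the ribosome. Its signal was 9186, 10475 and 10692 on the Col-0 arrays and 22324, 20016 and 21204 on the rcb-10 arrays. All rcb-10 arrays were above all Col-0 arrays, a rise of 1.07 on the log2 scale (SE 0.12, 95% interval 0.77 to 1.36, limma adjusted p = 0.00787), or 2.10-fold.

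rpl16 encodes L16, which in bacteria lies near the site where tRNA is bound. Its signal was 6218, 7201 and 7025 in Col-0 and 17787, 17734 and 18730 in rcb-10. The highest Col-0 array was far below the lowest rcb-10 array, and the rise was 1.41 (SE 0.11, 95% interval 1.13 to 1.69, limma adjusted p = 0.00438), or 2.66-fold.

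rpl14, its neighbour, encodes L14 of the face that meets the small subunit in bacteria. It gave 6906, 7940 and 8209 in Col-0 and 19483, 18920 and 19033 in rcb-10. The groups did not overlap, and the rise was 1.32 (SE 0.12, 95% interval 1.03 to 1.61, limma adjusted p = 0.00518), or 2.50-fold. The rcb-10 arrays lay closer together than the Col-0 arrays, of which replicate 1 was lowest, as it was for rpl22, rpl16 and rpl20.

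rpl36 encodes L36, one of the smallest proteins of the bacterial ribosome, and tobacco plastids without it survive with strong defects. Its signal was 8387, 8172 and 8326 in Col-0 and 27582, 26711 and 27254 in rcb-10. The spread within each genotype was small beside the gap, and the rise was 1.71 (SE 0.10, 95% interval 1.47 to 1.96, limma adjusted p = 0.00381), or 3.28-fold. In rcb-10 this probe set reached up to 83.4% of the highest signal on its array.

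The sizes of the rises within the cluster were compared through ratios of signals on the same array, and no difference between them could pass p under 0.05. The log2 ratio of rpl22 to rpl16 on the same array fell by 0.34 (SE 0.05) from Col-0 to rcb-10, and that of rpl14 to rpl36 fell by 0.39 (SE 0.08). That of rpl16 to rpl14 rose by 0.09 (SE 0.04). In each of these comparisons the 3 arrays of a genotype lay apart from the 3 of the other, with an exact two-sided permutation p of 0.1, which is the smallest that 3 arrays against 3 allow. Of 5 pairs of rpl genes compared in this way, all gave an exact permutation p of 0.1, and 0.1 after Benjamini-Hochberg adjustment. After quantile normalization the rpl16 to rpl14 ratios of the genotypes overlapped, with a change of 0.08 and an exact permutation p of 0.2.

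The other genes of the cluster rose with them. rpoA, for the alpha subunit of PEP, rose by 1.52 (limma adjusted p = 0.00433), and the small-subunit genes rps19 and rps3 rose by 1.20 (limma adjusted p = 0.00726) and 0.89 (limma adjusted p = 0.0105). Of the cluster, 9 genes were measured, 2 of them through probe sets shared by both copies of a gene in the inverted repeat, and all 9 were called higher, with changes from 0.51 to 1.71. With each array left out in turn 7 or 8 of the 9 were called, and the 4 rpl genes were among them each time. The 4 rpl genes ranged from 1.07 to 1.71.

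The 2 probe sets of both copies were those of rpl2 and rpl23, and they lie outside the rule since each names more than a single gene. L2 lies close to the peptidyl transferase centre in bacteria, and L23 at the exit of the tunnel. rpl2 gave 16846, 19744 and 18268 in Col-0 and 25703, 25773 and 26490 in rcb-10, a rise of 0.51 (SE 0.11, limma adjusted p = 0.0354). That call was lost after quantile normalization (0.31, limma adjusted p = 0.127) and without any 1 of the 6 arrays (limma adjusted p from 0.0640 to 0.110). rpl23 gave 10898, 10307 and 10786 in Col-0 and 18959, 17247 and 18654 in rcb-10, a rise of 0.78 (SE 0.11, limma adjusted p = 0.0115), lost only without rcb-10 replicate 3 among the arrays left out (limma adjusted p = 0.0512). Neither overlapped between the genotypes, and both changes were smaller than those of the 4 single-copy rpl genes of the cluster. Those differences were not tested. The rpl2 signal was 53.0% to 77.7% of the highest signal on its array, and that of rpl23 30.5% to 57.3%. Whether such high signals limit the size of a change was not tested.

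rpl20 had the greatest rise of the 7 genes. It encodes L20, which binds the large rRNA early in the assembly of the bacterial large subunit, and it is an essential gene in tobacco plastids. Its signal was 496, 618 and 598 in Col-0 and 3826, 3039 and 3734 in rcb-10. Every rcb-10 array was several times above every Col-0 array, and the rise was 2.63 (SE 0.16, 95% interval 2.24 to 3.02, limma adjusted p = 0.00381), or 6.19-fold. It ranked 68 by size among the rises of all probe sets.

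rpl33 moved the other way. It encodes L33, which in bacteria lies near the site from which spent tRNA leaves, and tobacco plants can do without it under standard conditions but need it in the cold. Its signal was 7349, 6537 and 5165 in Col-0 and 2423, 1576 and 2292 in rcb-10. The highest rcb-10 array was below the lowest Col-0 array, and the signal fell by 1.61 on the log2 scale (SE 0.23, 95% interval -2.17 to -1.04, limma adjusted p = 0.0128). With each array left out in turn its adjusted p ranged from 0.0314 to 0.0468.

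rpl33 and rpl20 are parted in the genome only by rps18, yet the log2 ratio of rpl33 to rpl20 on the same array fell by 4.24 (SE 0.24), the widest gap between any of the 7 genes. The 3 Col-0 arrays were all above the 3 rcb-10 arrays, with an exact permutation p of 0.1, the smallest possible. On the other side of rpl33 lies psaJ, for a small subunit of photosystem I. psaJ gave 6929, 6141 and 3225 in Col-0 and 1652, 1011 and 1184 in rcb-10, and fell by 2.04 (SE 0.35, limma adjusted p = 0.0191). The call for psaJ was lost without Col-0 replicate 1 or 2 or rcb-10 replicate 2 or 3 (limma adjusted p from 0.0613 to 0.0650), with falls of 1.83 to 2.00 there.

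rps18, the gene between rpl33 and rpl20, gave 1378, 1280 and 925 in Col-0 and 1045, 761 and 812 in rcb-10. Its groups overlapped, and its change of -0.45 (SE 0.21) did not pass the test (limma adjusted p = 0.211). In psaJ, rpl33 and rps18 alike, Col-0 replicate 3 was the lowest of the Col-0 arrays and rcb-10 replicate 2 the lowest of the rcb-10 arrays. clpP, for a plastid protease subunit, which follows rpl20 and the first exon of rps12, rose by 0.95 (SE 0.10, limma adjusted p = 0.00726).

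rpl32, another small protein of the large subunit and essential in tobacco plastids, lies apart from the others in the small single-copy region. It gave 6181, 7438 and 3494 in Col-0 and 9230, 6102 and 5720 in rcb-10. The groups overlapped, since Col-0 replicates 1 and 2 were above rcb-10 replicates 2 and 3, and rcb-10 replicate 1 was above all. The change was 0.33 (SE 0.34, limma adjusted p = 0.552), and its 95% interval of -0.52 to 1.19 holds 0 as well as a rise of 2-fold.

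rpl32 also varied most within the genotypes, with a coefficient of variation of 35.3% in Col-0 and 27.4% in rcb-10. Without Col-0 replicate 3 its change was 0.02 (limma adjusted p = 0.978), and without Col-0 replicate 2 it was 0.56 (limma adjusted p = 0.363), the lowest and highest of the alternatives. The log2 ratio of rpl32 to rpl20 fell by 2.30 (SE 0.40) with no overlap between the genotypes (exact permutation p = 0.1, the smallest possible). Its neighbour ccsA, for a protein of cytochrome c assembly, fell by 0.75 (limma adjusted p = 0.0376), a call lost with median centring and in a t-test of each probe set. ndhF, on the other side, gave 51.5, 79.0 and 108 in Col-0 and 63.8, 4.55 and 5.88 in rcb-10, the last 2 of them under the trp control level, and it did not pass the test (limma adjusted p = 0.144). Its change of -2.67 has no fixed size, since it was -0.61 (limma adjusted p = 0.292) with low signals raised to the trp level and -3.88 (limma adjusted p = 0.0221) without rcb-10 replicate 1.

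**Figure D2:**
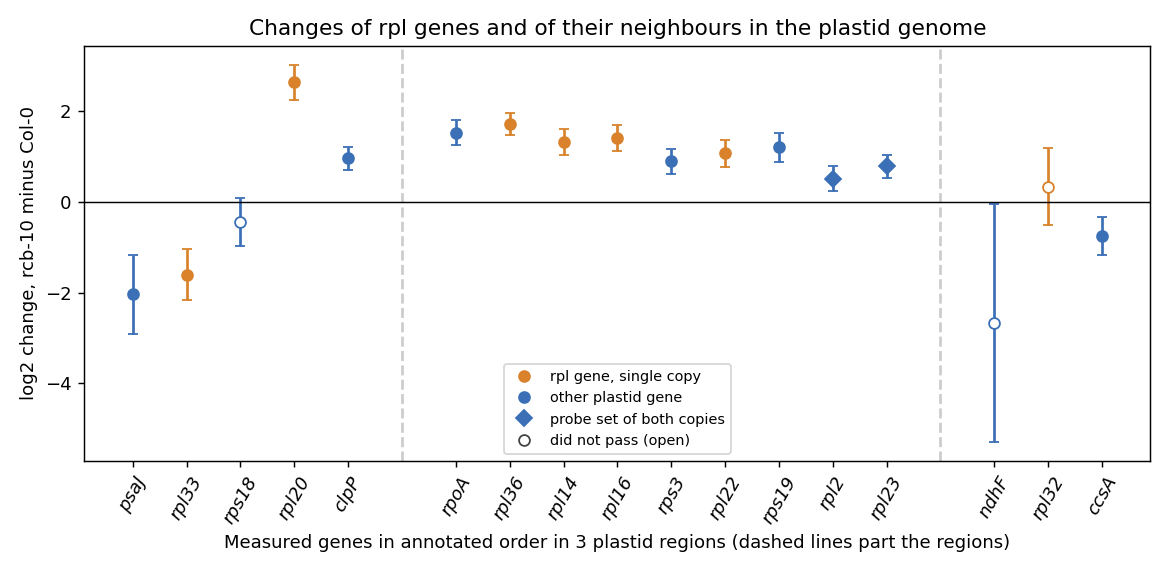
Change (log2, rcb-10 minus Col-0) with its 95% interval for genes in annotated order in 3 regions of the plastid genome. The 7 rpl genes with a probe set of their own are orange, and the measured genes beside them are blue. Blue diamonds are rpl2 and rpl23, measured through probe sets of both copies. All 9 measured genes of the rpoA to rpl23 cluster lie above 0, while rpl33 lies below 0 next to psaJ and rpl20 above 0 on the far side of rps18.

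**Figure D3:**
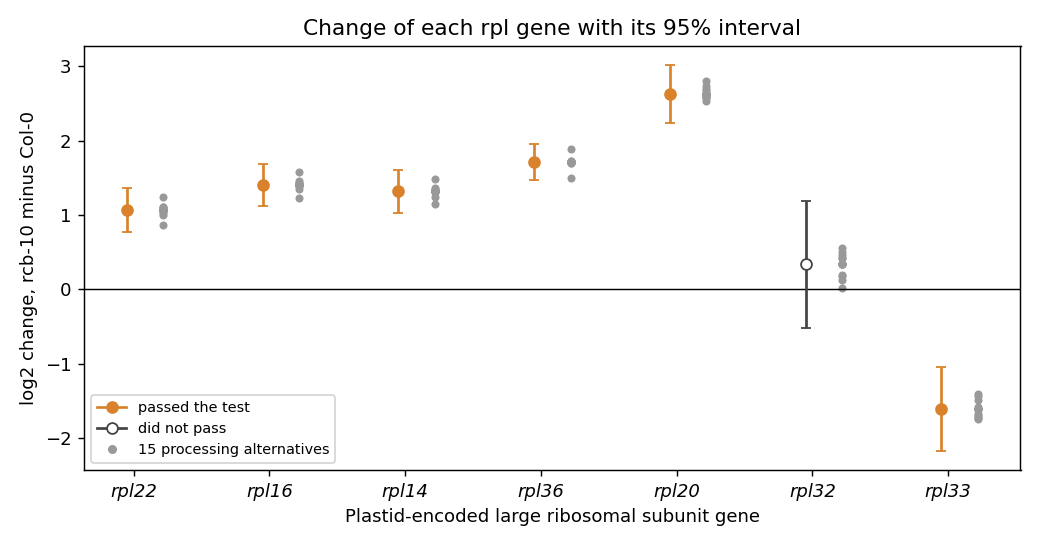
Change (log2, rcb-10 minus Col-0) of each rpl gene with its 95% interval, filled where it passed the test, and as grey points the same change under the processing alternatives. The grey points of rpl32 reach down to 0.02, and those of the other 6 genes stay on the side of 0 of their main value.

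Across the 6 arrays, 5 of the genes followed the mean of the other 6 closely. Pearson's r of the log2 signal with that mean was 0.967 for rpl14, 0.971 for rpl16, 0.974 for rpl20, 0.978 for rpl22 and 0.970 for rpl36. It was 0.426 for rpl32 and -0.932 for rpl33. These are descriptions over 6 arrays in 2 genotypes, so that they follow mainly the difference between the genotypes.

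Among the 62 other plastid genes, the 5 whose log2 signals were most like the mean of the rpl genes were rps15 (r = 0.996), clpP (r = 0.990), rps3 (r = 0.990), rps2 (r = 0.988) and ndhH (r = 0.988), over the 6 arrays. rps15, rps2 and rps3 encode small-subunit proteins, and ndhH a subunit of the plastid NDH complex. Of the 62, 17 had an r over 0.9 and 13 an r below -0.9. The share of all probe sets beyond these values was not counted, and these r too follow mainly the difference between the genotypes. Over the 13506 single-gene probe sets outside the rpl genes, the 5 most like were those of AT3G05950 (r = 0.999), AT1G73380 (r = 0.998), the WRKY transcription factor gene WRKY22 (r = 0.998), AT2G24240 (r = 0.998) and AT2G21430 (r = 0.997). The Col-0 signals of AT3G05950 were 49.0, 71.3 and 48.4, near the trp control level.

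For the small ribosomal subunit, 8 of 12 genes had a probe set naming a single gene. Of these, 5 were called higher and rps14 lower. Their median change was 0.79, beside 1.32 for the 7 rpl genes and -0.04 for all probe sets. Outside these counts, probe sets of both copies rose for rps7 (0.57, limma adjusted p = 0.0362) and rps12 (0.91 and 1.27, limma adjusted p = 0.0438 and 0.00643). rps15 rose by 2.81 and rps2 by 2.05, whereas rps14, whose rcb-10 signals of 51.0, 29.6 and 42.7 were near the trp control level, fell by 1.12 (limma adjusted p = 0.0336), a call lost with median centring and in the t-test of each probe set, which gave 5 higher and 0 lower in this list. All 4 genes for the PEP core were called higher, with a median of 2.76: rpoC1 rose by 2.79, rpoC2 by 2.72 and rpoA by 1.52, and rpoB rose from 32.6, 46.8 and 46.0, around the trp level, to 295, 300 and 299.

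Of the 33 photosynthesis genes none was called higher and 13 were called lower by limma (median -0.36), led by psbA (-2.87), psbD (-2.68), psbB (-2.59) and psbC (-2.56), all of photosystem II. At an unadjusted p under 0.05 there were 4 higher and 15 lower, and by a t-test of each probe set with adjusted p 1 higher and 11 lower, and median centring gave 3 higher. Of 10 NDH genes with a single-gene probe set, ndhH was called higher (2.30). Called lower were ndhJ, which fell by 0.996, and ndhK, which fell by 0.92. The call of ndhJ was lost with median centring and in the t-test of each probe set. Of 7 other plastid genes 3 were called higher, ycf3 (1.98), clpP (0.95) and ycf4 (0.77), and ccsA lower (-0.75). Over all 69 plastid genes 18 were called higher, 5 of them rpl genes, and 18 lower, and the summed plastid signal was 398617 to 440749 in Col-0 and 488439 to 532685 in rcb-10.

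None of the measured nuclear genes for other proteins of the same subunit passed the test. Of 26 listed, 7 had a probe set naming a single gene, and limma called none of them, with none at an unadjusted p under 0.05 and none by the t-test of each probe set. Their median change was -0.12, and under the deposited scaling all 7 changes lay below 0, from -0.31 to -0.002. The largest were those of AT4G17560, at -0.31 with a 95% interval of -0.80 to 0.19, and AT4G01310, at -0.27 with an interval of -0.62 to 0.09. AT4G01310 was the 1 gene of the 7 whose genotypes did not overlap, beside 40.6% of all probe sets. The widest interval, that of AT5G65220, ran from -0.88 to 0.87. The difference between the nuclear and the plastid genes was not tested.

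**Figure D4:**
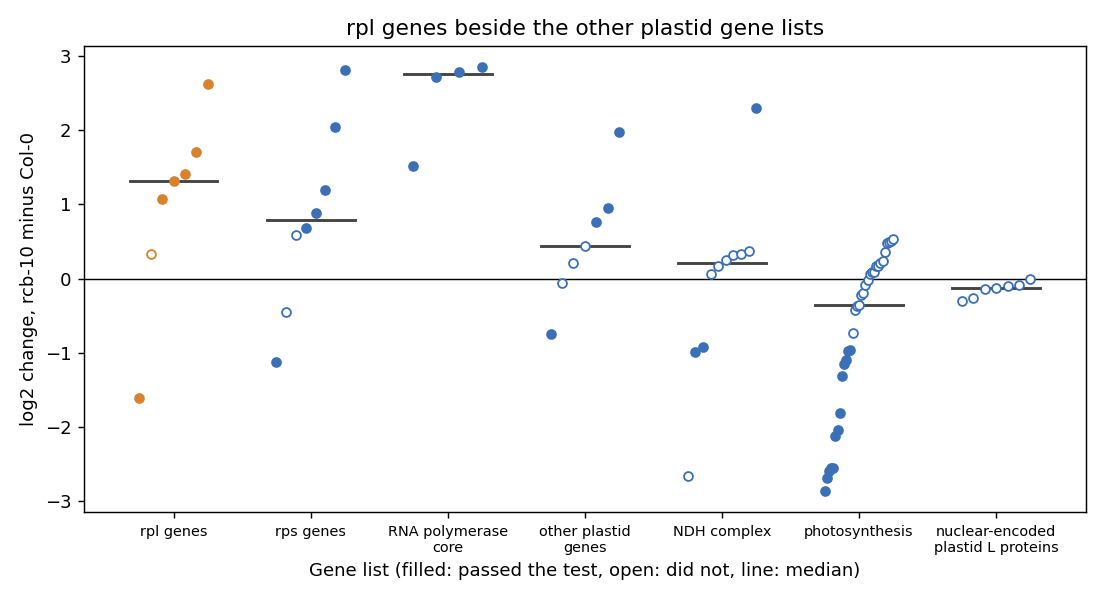
Change (log2, rcb-10 minus Col-0) of every gene with a single-gene probe set in the rpl list (orange) and 6 other lists (blue). Points are filled where the gene passed the test, with a line at each list's median. The medians run from 2.76 for the RNA polymerase core through 1.32 for the rpl genes to -0.36 for the photosynthesis genes.

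Few markers of the tissues in a seedling had a probe set that the annotation names for a single gene. RCA, the Rubisco activase gene, was the 1 of 5 green tissue markers with such a probe set. It had signals of 21896 to 23990 in Col-0 and 22251 to 24741 in rcb-10. The 2 of 5 root markers with such a probe set were PYK10 and EXPA7, of which 1 was called lower. They summed to 18567 to 23415 in Col-0 and 18752 to 20095 in rcb-10. A sum can follow the brighter probe set, so its overlap does not speak for the marker called lower. FAMA, 1 of 3 markers of epidermis and stomata, gave 245 to 308 in Col-0 and 222 to 262 in rcb-10. None of 3 seed markers had such a probe set. No measured marker was at the trp level on all arrays, the ranges of the genotypes overlapped for each list, and the part of tissue makeup in the rpl changes was not tested.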

How the data were processed

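Per the labels and the methods, the authors extracted total RNA, amplified and labelled it with a MessageAmp Premier kit, which primes on poly(A), and processed the array signals with RMA. Plastid mRNAs mostly lack long poly(A) tails, and how far such signals follow transcript amount was not tested here. The paper also measured plastid transcripts of rcb-10 by qRT-PCR, with primers specific to plastid genes. It reports lower PEP-dependent and higher NEP-dependent transcripts, with rpl20 among its NEP-dependent marker genes. The deposited values are linear intensity values with the same 2%-trimmed mean on each array, whereas RMA gives log2 values. Their medians ran from 182 (rcb-10 replicate 1) to 210 (Col-0 replicate 2). Which step gave these values was not stated in the sources used here, so they may not be RMA output. Here log2 was taken, and all 22746 probe sets (22810 less 64 array controls) were fitted with limma 3.58.1 in R 4.3.3 (lmFit, eBayes), genotype as the only term, with Benjamini-Hochberg adjustment and no filter. The fit was tested on simulated data. The platform annotation gave 13513 probe sets with a single gene, 503 with several and 8730 with none listed; gene order is from the TAIR10.1 RefSeq table.

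Named genes are all 7 rpl genes and their plastid neighbours, up to 4 called genes of each list by size of change (2 where fewer than 2 were called), and the 5 most correlated genes. Members and lists were chosen with earlier results of these data known. Array number limits the precision. Alternatives were normalization, filters, the variance model, array weights, a replicate block, a t-test per probe set, a floor at the trp level, the threshold and leaving out each array. No sequence is shown.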

Additional observations from a re-analysis of the deposited data

How the results depend on the processing

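Of the 7 rpl genes, 6 were called under every alternative except the replicate block, where 0 were (adjusted p from 0.0539 to 0.0638 for those 6, with the same changes) and 0 of all probe sets. Same-numbered arrays of the genotypes did not deviate together over all probe sets (r = 0.027, -0.019 and 0.020). This cannot show whether replicates were grown or processed in pairs, and the labels do not say. The rpl median of 1.32 became 1.15 after quantile normalization and 1.49 with median centring, which moved the median of all probe sets from -0.04 to 0.13. Median centring also changed calls in the other lists, to 0 lower in the small-subunit list, 3 higher in the photosynthesis list, 2 higher and 1 lower in the NDH list and 0 lower among the other plastid genes. The 3853 calls over all probe sets became 1663 with single-gene probe sets only, 5951 with a variance trend and robust variances, 1642 with a fold of at least 2, 6018 at adjusted p under 0.10, and 1256 to 2224 with an array left out. Leaving out an array also ended the calls of ccsA, rps14, ndhJ, ndhK and ycf4 in 5 of 6 cases each, with adjusted p up to 0.113, 0.0868, 0.101, 0.0685 and 0.0587. In the t-test of each probe set the calls of rps14, ccsA, ndhJ and psaJ were lost (adjusted p = 0.0709, 0.0622, 0.0691 and 0.0502).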
